A study of Mus musculus with 4 samples.

Results

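The transcripts described here are the shortest RNAs recovered with DDX3X from mouse embryonic fibroblasts: those with a length under 100 nt and at least 40 counts summed over the 4 libraries. There were 139 of them among the 59988 transcripts of the deposited table, of which 49277 had at least 1 count. The table lists no lengths. A length was obtained for each transcript with a count by dividing its count by its TPM, a level corrected for length and library size, and scaling the quotient to whole numbers of nucleotides. The 139 transcripts ran from 26 to 99 nt with a median of 77 nt, and 48 different lengths occurred among them. Neither the length nor the minimum count uses the contrast between the groups. The minimum is nevertheless easier to reach for a transcript that is high in 1 group, so counts and medians over these transcripts are given as a description.

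DDX3X, a DEAD-box protein, is a helicase that remodels RNA, acts in the translation of mRNAs and is found in stress granules. RNA attached to it was measured by CLIP-seq, which fixes RNA to protein with ultraviolet light, pulls the protein down with an antibody and sequences the attached RNA. The cells were a wild-type line of mouse embryonic fibroblasts, given either DMSO, the solvent, as the resting group (0 nM) or 400 nM thapsigargin for 1 h. Thapsigargin blocks the pump that loads calcium into the endoplasmic reticulum and so disturbs protein folding there. All cells were exposed to ultraviolet light of 254 nm at 3 times 400 mJ/cm2, and all precipitations used a custom rabbit polyclonal antibody to DDX3X. Each of the 2 groups had 2 libraries, and nothing in the labels says whether replicates came from separate cultures, so p-values measure only the spread between these libraries. No library of total RNA or of RNA recovered without the antibody was used here, and more of an RNA in the cell cannot be told apart from more of it bound per molecule. The tables give no gene names, so markers of fibroblasts could not be checked.

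RNAs of this size in mouse cells are mostly structured and do not code for protein. Transfer RNAs carry amino acids to the ribosome, small nucleolar RNAs guide the chemical modification of ribosomal and spliceosomal RNAs, and microRNA hairpins are the precursors from which mature microRNAs are cut. In the RefSeq annotation of GRCm38.p6, 2160 genes span under 100 nt, among them 996 microRNA genes (median 75 nt), 426 transfer RNA genes (median 72 nt) and 398 small nucleolar RNA genes (median 79 nt). Between 70 and 75 nt the annotation holds 348 transfer RNA, 131 microRNA and 47 small nucleolar RNA genes. Between 82 and 90 nt it holds 56, 225 and 31 of these, and between 76 and 81 nt 0, 136 and 163. These are counts of genes in the annotation, and length alone assigned none of the 139 transcripts to a class. Their identifiers, of the UCSC known-gene form, matched 0 entries of the reference tables, so no sequence and no gene name is given, and all but 2 are called by their length.

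The libraries held 10088691 and 2405801 counts with DMSO and 10463359 and 3902900 counts with thapsigargin, so replicate 2 was the shallower library of each group. Levels are given in CPM, counts scaled to library size after TMM adjustment, in which a floor of 3 counts came to 0.278 to 1.35 depending on the library. The short transcripts had a median of 27 and 7 counts with DMSO and of 75 and 31 counts with thapsigargin. Their summed counts over all libraries ran from 41 to 8723, with a median of 149, and 58 of them averaged at least 50 counts per library. In DMSO replicate 2, 4 of them had 0 counts. In that library a single count of a 60 nt RNA was worth 16.4 TPM.

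Short transcripts took a larger share of the DDX3X-bound counts after thapsigargin. In the DMSO libraries they held 0.110% (95% Wilson interval 0.108 to 0.112) of all counts in replicate 1 and 0.135% (0.130 to 0.140) in replicate 2. In the thapsigargin libraries they held 0.33% (0.330 to 0.337) and 0.455% (0.448 to 0.461). The groups did not overlap: with DMSO the share averaged 0.122% ± 0.0178 (SD, n = 2), and with thapsigargin 0.394% ± 0.0858, which is 3.22-fold. Within the replicate 1 libraries the ratio was 3.04-fold and within the replicate 2 libraries 3.37-fold. Exact permutation of the 4 libraries (two-sided) gave p = 0.33, the smallest value that 2 libraries against 2 can give. The intervals cover counting error only, since reads copied by PCR are not independent molecules.

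The share also differed when no minimum count was set. Together, the 475 transcripts under 100 nt with at least 1 count held 0.114% and 0.141% of the counts with DMSO and 0.342% and 0.465% with thapsigargin, a 3.16-fold difference in the means. Most of these counts were those of the 139, with 11062 of 11543 in DMSO replicate 1 and 34855 of 35804 in thapsigargin replicate 1. This fold therefore largely repeats that of the 139. The 336 transcripts with 1 to 39 counts alone differed by 1.76-fold. Without the 3 transcripts of highest count, which held 33.6%, 44.6%, 33.0% and 38.2% of the short transcripts' counts in the 4 libraries, the other 136 held 0.0728% and 0.0747% with DMSO against 0.223% and 0.281% with thapsigargin. That difference was 3.42-fold. On the deposited TPM scale, where short RNAs weigh more because the values are corrected for length, the 139 transcripts made up 3.30% and 4.08% of all TPM with DMSO and 8.45% and 11.0% with thapsigargin. The fold on that scale was 2.63. By TPM, 7 and 10 of them were among the 100 highest transcripts with DMSO, and 22 and 28 with thapsigargin.

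The difference in share was smaller in slightly longer RNAs. The 76 transcripts of 100 to under 200 nt with at least 40 counts held 0.0991% and 0.107% of the counts with DMSO and 0.143% and 0.171% with thapsigargin, a 1.52-fold difference. The log2 ratio of the counts under 100 nt to those of 100 to under 200 nt was 0.15 and 0.34 with DMSO and 1.22 and 1.41 with thapsigargin. These values did not overlap between the groups (two-sided exact permutation p = 0.33, the smallest possible).

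Most short transcripts rose individually. In an edgeR quasi-likelihood fit over the 29059 transcripts that passed the filter on low counts, 83 of the 138 short transcripts tested were called higher with thapsigargin (Benjamini-Hochberg adjusted p under 0.05). Over all transcripts tested, 3.74% were called higher by the same rule. None of the 138 was called lower, against 3.67% of all transcripts tested. At an unadjusted p under 0.05 the edgeR fit had 104 short transcripts higher and 1 lower, where 10.4% and 11% of all transcripts were. Limma-voom called 0 lower, against 5.68% of all transcripts. DESeq2 also called 0 lower, against 3.46%, but it gave an adjusted p to only 40 of the short transcripts. It leaves out transcripts of low count, and the 10 with a log2 fold change below 0 had at most 92 counts in total. Nothing is therefore read from the 0 of DESeq2. Limma on log2(TPM + 0.5) called 3 lower, of 64, 70 and 80 nt, where 1.49% of all transcripts were called lower. The transcript left untested had 96 nt and 5, 1, 32 and 5 counts.

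The median log2 fold change of the 138 was 1.66, or 3.16-fold, with quartiles of 1.23 and 2.16. The median over all transcripts tested was 0.00, with quartiles of -0.29 and 0.30. The log2 fold change was above 0 in 128 of the short transcripts, against 50.2% of all transcripts tested, and above 1 in 109, against 3.11%. Normalised counts of both thapsigargin libraries lay above both DMSO libraries in 115 of the 138, against 26.1% of all transcripts tested. In 4 they lay below, against 25.2%, and in 19 the groups overlapped. Among the 83 called, the log2 fold change ran from 0.996 to 3.31 with a median of 1.96, and 40 had a value of at least 2.

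How many transcripts were called depended on their counts. The 83 called had a median of 284 counts in total and the 55 not called a median of 70. Of those not called, 27 had a log2 fold change above 1 and 18 one between 0 and 1. Among 58 transcripts averaging 50 counts or more per library, 52 were called, 54 had a log2 fold change above 1, and 56 had groups that did not overlap. DESeq2, which gave an adjusted p for 40 of the short transcripts, called 34 of them higher, against 3.54% of all transcripts to which it gave one. A refit over transcripts of that count alone called 51 of the 58, where 6.35% of all were called higher.

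The minimum count was also applied to the DMSO libraries alone. The 67 short transcripts with at least 40 counts in those libraries would pass it whatever their level with thapsigargin. Of these 67, 49 were called higher, against 3.74% of all transcripts tested, and the median log2 fold change was 1.64. The other 72 reached the minimum only once their thapsigargin counts were added, which favours high fold changes, so nothing is read from them. Of these 72, 71 were tested and 34 called, against the same 3.74%, with a median of 1.68, and 6 had a log2 fold change below 0.

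**Figure D1:**
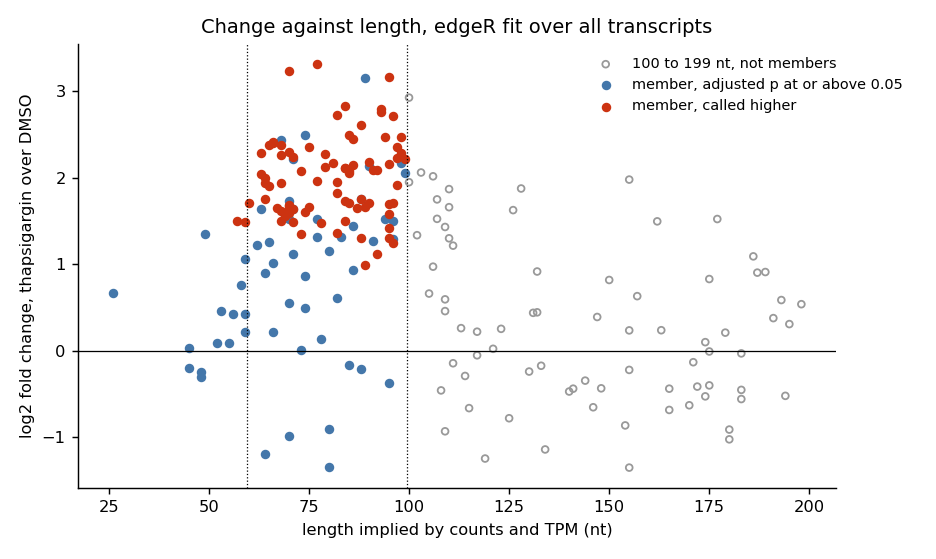
Log2 fold change (thapsigargin over DMSO, edgeR fit, vertical axis) of each tested transcript with at least 40 counts, against its length in nt (horizontal axis), below 200 nt. Red points are the 83 short transcripts called higher, blue points the 55 not called, and open points the 76 of 100 to under 200 nt. Dotted lines mark the limits at 60 and 100 nt. Most points between the lines lie above 1, and so do most of those from 100 to 110 nt. Points to the left of the lines and those beyond 110 nt mostly spread around or little above 0.

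By length, the transcripts from 60 to 99 nt had similar medians and those under 60 nt a lower one. The 16 under 60 nt had a median log2 fold change of 0.43, with 2 called higher. The 25 of 60 to 69 nt had a median of 1.75, with 17 called. Among 25 of 70 to 75 nt the median was 1.64, with 14 called. Of 12 with 76 to 81 nt, 6 were called and the median was 1.50. Among 32 of 82 to 90 nt, 23 were called and the median was 1.76. The 28 tested of 91 to 99 nt had the highest median, 2.07, with 21 called. The classes from 60 nt up thus held medians between 1.50 and 2.07, and the part called ran from 6 of 12 to 21 of 28.

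Some of these class counts rested on single libraries. In the 60 to 69 nt class the calls numbered 10 without DMSO replicate 1 and 7 without thapsigargin replicate 1. In the 70 to 75 nt class they numbered 9 without either of these libraries. Under 60 nt they numbered 1 without DMSO replicate 1 or without thapsigargin replicate 2, and 4 without DMSO replicate 2. Over all transcripts tested, the fits without DMSO replicates 1 and 2 called 2.94% and 3.29% higher, and those without thapsigargin replicates 1 and 2 called 2.23% and 2.22%. With DESeq2 the calls in the 6 classes, from the shortest to the longest, were 1, 3, 6, 1, 14 and 9.

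**Figure D2:**
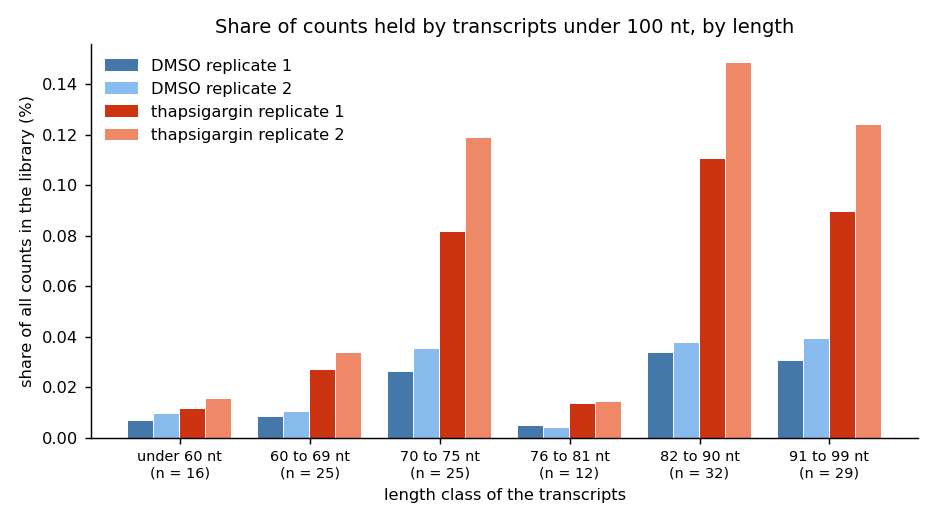
Share of all counts in a library (percent, vertical axis) held by the short transcripts of each length class (horizontal axis, with the number of transcripts), 1 bar for each of the 4 libraries, with DMSO in blue and thapsigargin in red. In each class both thapsigargin bars stand above both DMSO bars; under 60 nt they run from 0.00670% to 0.0152%, and at 82 to 90 nt from 0.0336% to 0.149%.

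Measured as a share of all counts, each length class was higher in both thapsigargin libraries than in both DMSO libraries. The ratio of the mean shares was 1.64 under 60 nt, 3.26 at 60 to 69 nt, 3.28 at 70 to 75 nt, 3.39 at 76 to 81 nt, 3.65 at 82 to 90 nt and 3.07 at 91 to 99 nt. The composition of the short transcripts themselves therefore moved little above 60 nt. Transcripts of 70 to 75 nt held 23.7% and 26.1% of the short transcripts' counts with DMSO and 24.5% and 26.2% with thapsigargin, so the groups overlapped. Those of 82 to 90 nt held 30.6% and 27.8% with DMSO and 33.2% and 32.7% with thapsigargin, without overlap (exact permutation p = 0.33). The share of the 91 to 99 nt class was 27.8% and 28.9% with DMSO and 26.9% and 27.3% with thapsigargin, also without overlap and with the same p.

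Transcripts of 70 to 75 nt, where the annotation holds mostly transfer RNA genes, were compared with those of 82 to 90 nt, where it holds mostly microRNA genes. The log2 ratio of the counts at 70 to 75 nt to those at 82 to 90 nt was -0.37 and -0.09 with DMSO and -0.44 and -0.32 with thapsigargin. The mean difference was -0.15, the groups overlapped, and the exact permutation p was 0.667. With 2 libraries in each group this does not show that the classes respond alike.

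Transcripts under 60 nt made up a smaller part of the short transcripts with thapsigargin. They held 6.11% (95% Wilson interval 5.68 to 6.57) and 6.94% (6.11 to 7.86) of the short transcripts' counts with DMSO, and 3.36% (3.17 to 3.55) and 3.34% (3.08 to 3.61) with thapsigargin. The log2 ratio of their counts to those of the 60 to 99 nt transcripts was -3.94 and -3.75 with DMSO and -4.85 and -4.86 with thapsigargin, a difference of -1.01. This comparison was chosen after the values were seen. No value of 1 group fell within the other (exact permutation, two-sided, p = 0.33, as low as the design allows).

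Among the 16 transcripts under 60 nt, the shortest, of 26 nt, had 38 and 9 counts with DMSO and 79 and 17 with thapsigargin. Its log2 fold change was 0.66 (edgeR adjusted p = 0.381). A 57 nt transcript rose, from 85 and 12 counts to 172 and 112, with a log2 fold change of 1.50 (adjusted p = 0.00162). The other one called in this class had 59 nt; its counts went from 46 and 13 to 145 and 57, a log2 fold change of 1.49 (adjusted p = 0.00354). No other transcript of the class was called. The groups overlapped in 9 of its 16 transcripts, against 14177 of all 29059 tested. In 7 both thapsigargin libraries lay above both DMSO libraries, against 26.1% of all, and in 0 below, against 25.2%. A log2 fold change below 0 was found in 3, against 14480 of the 29059. Across the 138 tested, the log2 fold change and the length had a Spearman rho of 0.34, and across the 122 of 60 to 99 nt a rho of 0.14. Both are descriptions over transcripts of the same 4 libraries.

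At single lengths with 5 or more transcripts the same picture held. All 5 transcripts of 84 nt were called higher, with log2 fold changes from 1.50 to 2.83. At 95 nt 6 of 7 were called, with a median of 1.59, and the remaining one had 30 and 9 counts with DMSO and 33 and 7 with thapsigargin. At 68 nt 5 of 6 were called, with a median of 2.10. The other single lengths had lower shares of calls or equal ones. At 70 nt, the most frequent length, 6 of 10 were called and the median was 1.66. Medians at the remaining lengths were 1.75 at 64 nt (3 of 5 called), 1.64 at 71 nt (3 of 6), 1.83 at 82 nt (4 of 5), 2.05 at 85 nt (4 of 5), 1.76 at 88 nt (3 of 5) and 1.50 at 96 nt (3 of 5 tested). So 1 length could hold both called and uncalled transcripts, and the lowest median among these 10 lengths was 1.50.

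The 2 transcripts with the smallest p-values were those of the identifiers uc011zxn.1 and uc012cql.1. For uc011zxn.1, of 85 nt, the counts were 108 and 18 with DMSO and 532 and 255 with thapsigargin. Its normalised CPM values, scaled by TMM, were 10.6 and 8.08 with DMSO and 49.2 and 64.2 with thapsigargin, a mean of 9.36 ± 1.81 (SD, n = 2) against 56.7 ± 10.6. Both thapsigargin libraries stood well clear of the DMSO libraries, and the log2 fold change was 2.49 with a standard error of 0.21 (edgeR adjusted p = 3.41e-09). For uc012cql.1, of 95 nt, the counts were 193 and 53 with DMSO and 806 and 444 with thapsigargin. The normalised values were 19.0 and 23.8 against 74.6 and 112 CPM, again without overlap. Its log2 fold change was 2.16 with a standard error of 0.19 (edgeR adjusted p = 6.62e-09).

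The transcript with the most counts had 87 nt. Its counts were 1306 and 463 with DMSO and 4469 and 2485 with thapsigargin, or 129, 208, 414 and 626 CPM. The groups did not overlap, and it rose by 1.66 on the log2 scale with a standard error of 0.30 (edgeR adjusted p = 0.0349). A 71 nt transcript was the highest by length-corrected level, at a mean of 5102 TPM with DMSO and 13742 TPM with thapsigargin. It had 1024 and 492 counts with DMSO and 3547 and 2556 with thapsigargin, or 101, 221, 328 and 644 CPM. Its thapsigargin values also lay above both DMSO values, but replicate 2 was higher than replicate 1 in each group, and the log2 fold change of 1.64 had a standard error of 0.71 and an edgeR adjusted p of 0.395. The transcript was therefore not called, although its log2 ratio was 1.70 within the replicate 1 libraries and 1.54 within the replicate 2 libraries.

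After these in counts came a transcript of 92 nt, with 1383 and 491 counts with DMSO and 3471 and 1741 with thapsigargin. In CPM these were 136, 220, 321 and 439. Its rise was among the smaller ones of the short transcripts called, 1.12 on the log2 scale with a standard error of 0.23 (edgeR adjusted p = 0.0174). The transcripts of highest count in the other classes were of 58, 68 and 79 nt. The 79 nt transcript had 147 and 25 counts with DMSO and 640 and 231 with thapsigargin, and rose by 2.12 with a standard error of 0.19 (adjusted p = 8.97e-09). The 68 nt transcript had 153 and 42 counts against 515 and 318, and rose by 1.94 with a standard error of 0.22 (adjusted p = 1.31e-06). In neither did the groups overlap. The 58 nt transcript differed from them. It had 84 and 70 counts with DMSO and 193 and 156 with thapsigargin, or 8.27, 31.4, 17.9 and 39.3 CPM, so DMSO replicate 2 exceeded thapsigargin replicate 1 (log2 fold change 0.76, adjusted p = 0.775).

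**Figure D3:**
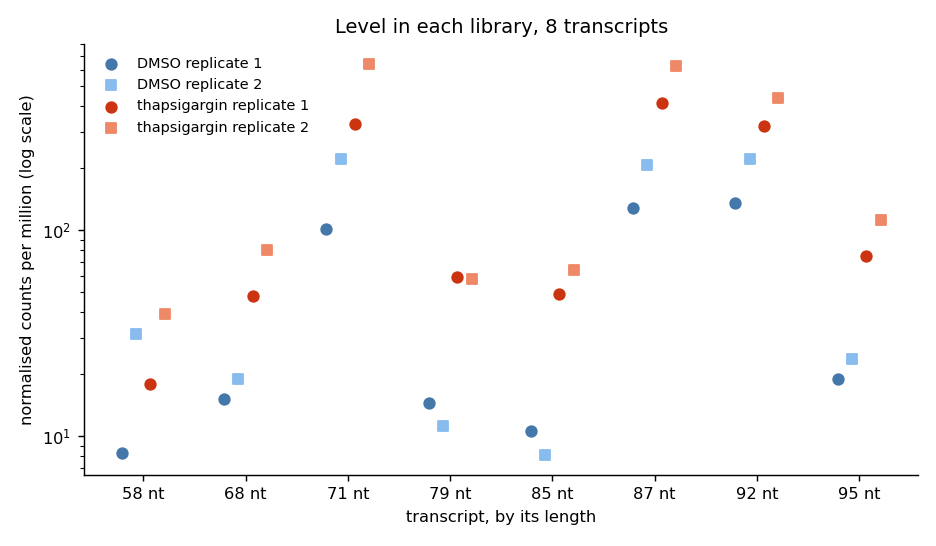
Normalised CPM (log scale, vertical axis) of 8 short transcripts named by length (horizontal axis) in each library: the transcript of highest count in each length class, and the 85 and 95 nt transcripts with the smallest p-values. Values are not corrected for length, so they compare libraries within a transcript; only at 58 nt do the DMSO (blue) and thapsigargin (red) points interleave.

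Among the transcripts averaging 50 counts or more, the extremes of the change lay in 89 and 52 nt. The 89 nt transcript had the highest log2 fold change, 3.16, from 41 and 19 counts with DMSO and 287 and 277 with thapsigargin. The thapsigargin libraries were 26.6 and 69.8 CPM, so they differed from each other by more than 2-fold, the standard error was 0.79, and the edgeR adjusted p was 0.142. The 52 nt transcript had the lowest log2 fold change, 0.09, from 123 and 38 counts with DMSO and 158 and 59 with thapsigargin. In CPM it had 12.1 and 17.1 against 14.6 and 14.9, which overlap (adjusted p = 0.896). Over all short transcripts, the highest log2 fold change, 3.31, belonged to one of 77 nt with 10 and 3 counts against 74 and 63 (edgeR adjusted p = 9.48e-05). Next came a 70 nt transcript with 3 and 2 counts against 44 and 17, which rose by 3.24 (adjusted p = 0.0055). Both transcripts reached the minimum count only once their thapsigargin counts were added, which favours high fold changes. With DMSO the 70 nt transcript was at or under the floor of 3 counts, and the 77 nt one was at it in replicate 2. Nothing is therefore read from the rank of either transcript.

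The 10 transcripts with a log2 fold change below 0 had 41 to 92 counts in total. That sum includes the thapsigargin libraries and so is lower for a transcript that falls. With DMSO the 10 had 14 to 35 counts in replicate 1 and 2 to 15 in replicate 2. The medians of all 139 short transcripts there were 27 and 7. The smallest edgeR adjusted p among the 10 was 0.199, for an 80 nt transcript with a log2 fold change of -1.34. Its counts were 33 and 9 with DMSO and 11 and 8 with thapsigargin. A 64 nt transcript with 21 and 6 counts against 9 and 5 had a value of -1.19, and a 70 nt one with 24 and 7 against 13 and 6 had -0.98. In these 3 and in a further one of 80 nt the thapsigargin values lay below both DMSO values. None of the 10 passed the edgeR test.

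The change was of similar size in each replicate pair. Ratios here are of log2 CPM, with 0.5 CPM added to each value. The median ratio of thapsigargin to DMSO over the short transcripts was 1.48 within the replicate 1 libraries and 1.52 within the replicate 2 libraries. The median ratio of replicate 2 to replicate 1 was 0.14 within the DMSO group and 0.24 within the thapsigargin group. The median ratios between groups were thus larger than those between replicates. Ratios of opposite sign offset each other in a median, so it does not measure how far single transcripts differed between replicates. In 122 of the 139 both ratios were above 0, and likewise in 57 of the 58 that averaged 50 counts or more. Over all 29059 transcripts tested, both were above 0 in 9723. Across the short transcripts, which share the 4 libraries, the ratios of the replicate pairs had a Pearson r of 0.59 and a Spearman rho of 0.54, given as a description.

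**Figure D4:**
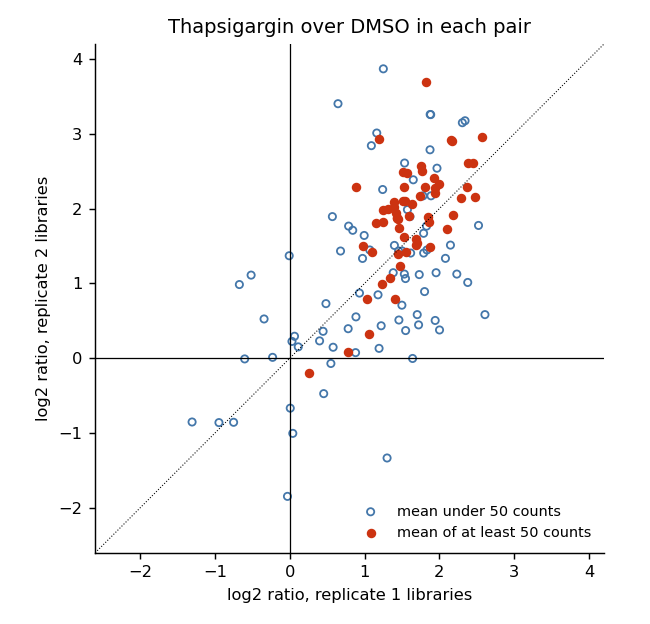
Log2 ratio of thapsigargin to DMSO for each of the 139 short transcripts in the replicate 1 libraries (horizontal axis) and in the replicate 2 libraries (vertical axis), with transcripts averaging at least 50 counts filled and the dotted line marking equal ratios. Both ratios are above 0 for 122 transcripts, and for 57 of the 58 filled points, against 9723 of all 29059 transcripts tested.

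By level, the median fitted change varied little, while its spread and the number of calls varied a great deal. Ordered by mean CPM over all 4 libraries, the 46 lowest short transcripts lay between 1.29 and 3.25 CPM. Of these, 45 were tested, 9 were called higher, and the median log2 fold change was 1.45. The next 46, between 3.33 and 10.2 CPM, had 32 called and a median of 1.67. The 47 highest, between 10.6 and 344 CPM, had 42 called and a median of 1.71. The fitted medians thus lay between 1.45 and 1.71, while the calls went from 9 of 45 to 42 of 47. Quartiles were 0.42 and 2.17 in the lowest group, with 8 values below 0, and 1.59 and 2.10 in the highest, with 0 below. Median log2 ratios within the replicate 1 and 2 libraries were 1.16 and 1.11 in the lowest group and 1.57 and 2.00 in the highest. The 0.5 CPM added to these ratios lowers them most at low levels. Spearman's rho between the log2 fold change and the mean CPM was 0.19 over the 138 tested. On the length-corrected scale the short transcripts ran from 6.17 to 5102 TPM with DMSO, with a median of 93.5 TPM, and from 32.9 to 13742 TPM with thapsigargin, with a median of 228 TPM.

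**Figure D5:**
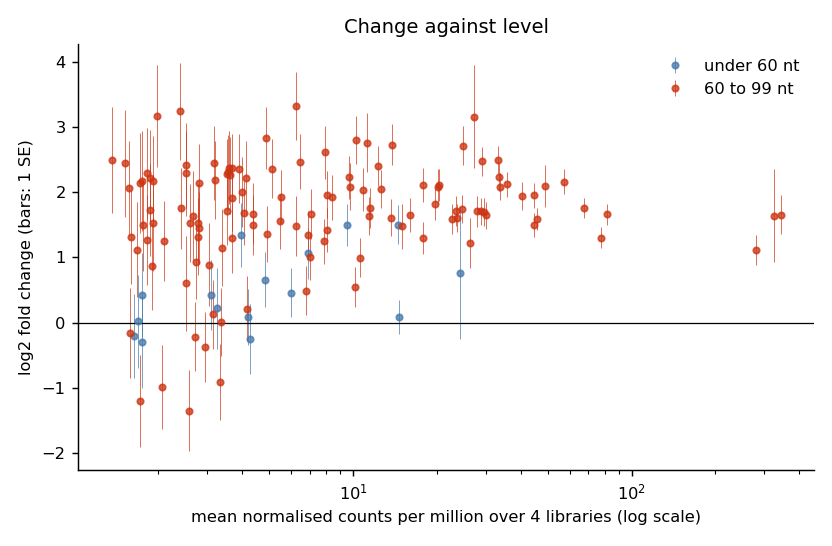
Log2 fold change (thapsigargin over DMSO, edgeR fit, vertical axis, bars of 1 standard error) of the 138 tested short transcripts against their mean normalised CPM over the 4 libraries (log scale, horizontal axis), with those under 60 nt in blue and the others in red. Error bars shorten as the level rises, the values below 0 lie at or under 4.25 CPM, and the blue points lie in the lower part of the cloud.

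By identifier, the short transcripts were concentrated in the series beginning uc011 and uc012, which held 42 and 70 of the 139. Of the 111 tested from these series 71 were called higher, with a median log2 fold change of 1.66. The 27 from other series had a median of 1.67, with 12 called. The counts of these 27 were lower, with medians of 21 and 6 counts in the DMSO libraries against 30 and 8 for the others. Longer transcripts of the same series were balanced between the directions: of 2941 tested with at least 200 nt under uc011 or uc012, 77 were called higher and 84 lower, and the median was -0.02. From 100 to under 200 nt, 20 transcripts of these series had a median of 1.15, with 8 called higher and 1 lower. In the same length range the 56 from other series had a median of 0.01, with 3 called higher and 2 lower. The 20 were shorter, with a median length of 109 nt against 142.5 nt for all 76 of the range. Series and length therefore cannot be told apart there. The split by series was made after the values were seen, and the difference between the series at 100 to under 200 nt was not tested.

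Neighbouring identifiers often belonged to several short transcripts. Of the 139, 87 stood alone in the sorted table, and 52 fell into 22 runs of adjacent identifiers, 14 with 2 members and 8 with 3. All members were called higher in 11 of the 22 runs, and no member in 3. Within a run the log2 fold changes spanned a median of 0.73, from 0.01 to 1.73. The interquartile range over all tested short transcripts was 0.93. A range over 2 or 3 values and an interquartile range are unlike measures, so no likeness within runs is read from them. None of the short transcripts shared all 4 counts with another of them, so members of a run were counted separately, and 1 shared them with a transcript outside the set.

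Among the runs of 3, the one beginning uc012al had transcripts of 93, 70 and 68 nt with log2 fold changes of 2.76, 1.64 and 1.94, all called. In the run beginning uc011zp, transcripts of 82, 84 and 96 nt had 1.96, 1.50 and 1.71, and in that beginning uc012ef transcripts of 84, 88 and 82 nt had 1.74, 1.30 and 1.83. All 6 of these were called too. The run beginning uc012ah held the 71 nt transcript of highest TPM beside others of 65 and 94 nt, whose log2 fold changes were 1.91 and 2.47. Levels within it differed by 87.7-fold in mean CPM, and the log2 fold changes ran from 1.64 to 2.47. The run beginning uc011ya was different: its transcripts of 55, 70 and 45 nt had log2 fold changes of 0.09, 1.53 and -0.21, and none was called. Here the 70 nt member was apart from its neighbours under 60 nt. In the run beginning uc011xw, of 57, 62 and 63 nt, the values were 1.50, 1.22 and 1.63, with the 57 nt member called.

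Longer transcripts beside the short ones in identifier order had a median near 0. Of 163 transcripts of at least 200 nt that stood next to a short one, 93 were tested. Of these, 4 were called higher and 5 lower, and the median log2 fold change was 0.07. Whether reads of a short RNA that lies inside a longer transcript were counted for one or for both is not given in the sources used here.

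Medians were lower above 100 nt. The 42 transcripts of 100 to under 150 nt with at least 40 counts had a median log2 fold change of 0.41, with 8 called higher and 1 lower. Within this range, most of the transcripts up to 110 nt had a log2 fold change above 1, with values from -0.93 to 2.93. For the 34 of 150 to under 200 nt the median was 0.04, with 3 called higher and 2 lower. The 28322 tested of 200 nt and over had a median of 0.00, with 990 called higher and 1062 lower. Just inside the length limit, the 2 transcripts of 99 nt had log2 fold changes of 2.06 and 2.22. Just outside it, the 2 of 100 nt had 2.93 and 1.95. At the count limit, the 4 transcripts with 41 counts, of 48, 64, 68 and 74 nt, had -0.30, -1.19, 2.44 and 2.49. The 5 with 38 or 39 counts, of 76, 79, 87, 89 and 96 nt, had 0.77, 1.74, 2.35, 0.51 and 1.31.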

How the data were processed

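The deposited data are 2 tables of the same transcripts and libraries, one of raw counts and one of TPM, per the file headers. Reads were processed with cutadapt 4.1 and STAR 2.7.0d on GRCm38 (mm10), per the submitters' processing notes. The counting tool, the annotation release, the shortest read kept and the treatment of duplicates and of reads with several matches are not given in the sources used here, so transcripts with near-identical copies could not be set apart. The labels' protocols name a stranded mRNA kit for RNA-seq and an earlier procedure for CLIP.

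Samples were grouped by the treatment label. Lengths came from count divided by TPM, scaled to a transcript of 5818 nt; each fell within 1.3e-10 of a whole number. The test on counts was edgeR 4.0.16 (R 4.3.3): filterByExpr (minimum count 10, total 15), TMM, robust quasi-likelihood F test over all 4 libraries without a block, and Benjamini-Hochberg adjustment over 29059 transcripts. The test was checked on simulated data. Shares used exact permutation over the libraries (scipy 1.17.1) and Wilson intervals. Alternatives were RLE and library-size scaling, other count filters and minimum sums, DESeq2 1.42.0, limma-voom and limma 3.58.1 on log2(TPM + 0.5), a replicate block, leaving out the 10 most abundant transcripts or repeated counts, and leaving out each library. The contrasts of 60 nt, of the 3 transcripts of highest count and of identifier series, and the setting without a minimum sum, were added after the values were seen. The members and length classes were chosen with earlier results of these data known. Transcripts named by identifier were, per direction, the 2 called of smallest p-value whose groups did not overlap; others, named by length, were those of highest count in each class and the extremes of the fold change, and further examples by length were chosen after their values were seen.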

Additional observations from a re-analysis of the deposited data

Results flagged for a closer look

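The 336 transcripts under 100 nt with 1 to 39 counts in total were no members of the set described above and entered only the values over all transcripts under 100 nt. They held 0.00477% and 0.00624% of all counts with DMSO and 0.00907% and 0.0103% with thapsigargin. Their mean share with thapsigargin, 0.00970% ± 0.000888 (SD, n = 2), was 1.76-fold that with DMSO, 0.00550% ± 0.00104, without overlap between the groups (two-sided exact permutation p = 0.33, the smallest possible). Only 14 of them passed the filter on low counts, and 0 were called by edgeR, with 7 higher and 0 lower at an unadjusted p under 0.05.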

How the results depend on the processing

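Of the 83 transcripts called higher, 83 were also called under RLE scaling, 83 under library-size scaling, 82 with limma-voom, 79 without a count filter, 66 with limma on TPM and 33 with DESeq2, which gave 40 short transcripts an adjusted p. Over all transcripts the share called higher was 3.69%, 5.28%, 5.52%, 2.26%, 0.881% and 3.54% in these 6 settings. Their direction was the same in every setting that tested them. The count of calls was 51 over transcripts averaging 50 counts or more and 34 with DESeq2, and limma on TPM called 3 lower. Leaving out each library gave 57 to 86 calls. The median log2 fold change was 1.73 under library-size scaling and also at a mean of at least 50 counts, 1.71 at a sum of at least 100, 1.51 on TPM, 1.46 with no minimum sum and no filter, and 1.57 to 1.80 leaving out each library. Class calls over transcripts averaging 50 counts or more were 6 at 60 to 69 nt, 8 at 70 to 75 nt and 3 at 76 to 81 nt; with DESeq2 they were 1, 3, 6, 1, 14 and 9 from the shortest class up, and limma-voom called 4 under 60 nt. Leaving out each library gave 1 to 4 calls under 60 nt, 7 to 19 at 60 to 69 nt and 9 to 14 at 70 to 75 nt. The fewer tested transcripts account for the counts at a mean of at least 50 and bear on those of DESeq2; the cause of the others was not tested. The share difference of 0.272 percentage points was 6.03 on TPM, which is corrected for length.

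The share of the short transcripts' counts at 60 to 69 nt differed by 0.148 percentage points, and by -0.0649 at a sum of at least 20, -0.388 with no minimum, and -0.184 to 0.479 leaving out each library. At 70 to 75 nt it was 0.420, with -0.0587 at a sum of at least 100 and -0.734 to 1.57 leaving out each library; at 76 to 81 nt it was 0.169, with -0.555 to 0.893. The direction of these 3 is therefore not settled, and the cause was not tested.

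The labels do not say that a replicate number marks a shared culture. Deviations of the replicates from their group means correlated at 0.0844 between the groups over all tested transcripts and at 0.121 over the short ones. With the replicate block, 91 were called higher, including all 83, against 6.1% of all transcripts, and the median was 1.63. Depth was lowest in DMSO replicate 2, with a median of 7 counts per short transcript; leaving that library out gave 86 calls.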
